A study of Mus musculus with 6 samples.

Results

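NRF2 peaks that were annotated to an exon, a 3' UTR, a transcript end or a non-coding transcript were described in mouse embryonic fibroblasts (MEFs). Members were all peaks whose HOMER annotation began with one of these 4 classes, and 1431 of the 16057 peaks in the 4 NRF2 peak lists met that rule. They were 194 of 2336 peaks in wild-type (WT) cells in complete medium and 596 of 5980 in WT cells without leucine. In GCN2 knockout (KO) cells they were 271 of 3141 in complete medium and 370 of 4600 without leucine.

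The MEFs were of the 129S6/SvEvTac strain and differed in genotype, WT or KO for GCN2, the kinase that senses uncharged tRNA. Each genotype was grown for 24 h in DMEM with leucine, called complete medium here, or in DMEM without it, and NRF2 was then precipitated with its crosslinked DNA and sequenced (ChIP-seq). There was 1 NRF2 library per condition and 1 input library per genotype, and input values were not analysed here. With 1 library per condition no difference has a replicate check, so no p-value is given and every 95% interval is an exact Clopper-Pearson interval that covers counting error only. The read depth behind the lists is unknown, and a site without a peak did not pass the threshold that the authors set, so NRF2 may still have been bound there. A peak list does not measure RNA, so it checks neither the knockout nor the fibroblast label.

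NRF2, encoded by Nfe2l2, is a transcription factor that pairs with small Maf proteins and binds antioxidant response elements, most often in promoters and enhancers of genes for glutathione, thioredoxin, iron and heme metabolism. KEAP1 marks NRF2 for degradation until oxidants or electrophiles stop it. An annotation class names the transcript feature to which a peak was assigned, and a peak of the transcript-end class may lie beyond that end. A transcript end, written TTS for transcription termination site, can lie close to the start of a neighbouring gene, so the gene that hosts a peak and the gene with the nearest transcription start site (TSS) need not be the same.

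Among the 280 transcript-end peaks, 19 were assigned to the end of a microRNA gene, 10 to that of a long non-coding RNA gene and 3 to that of a small nucleolar RNA gene. Such a peak can lie beyond the gene. The transcript-end windows of Mir6360 were centred 509 to 563 bp from its TSS, while the 4 microRNA genes shown here by sequence were 62 to 91 bases long. MicroRNAs are short RNAs that pair with messages through a seed, bases 2 to 8. In 4 of the microRNA genes a peak window held mature microRNA sequence, away from its centre, and these sequences are shown. The centre of each of these windows lay outside the microRNA gene itself. RefSeq (GRCm38.p6) gave the sequences, written 5′ to 3′ with the seed in capitals. The 6 mature RNAs had 6 different seeds.
mmu-miR-6990-5p: cCCAGGGUgagucagggcucu
mmu-miR-6990-3p: aGCCCUGCcucuuccuggcag
mmu-miR-6956-5p: uGAGUGGGugggacuggccu
mmu-miR-5126: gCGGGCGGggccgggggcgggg
mmu-miR-7217-5p: aACUUGUAucuugugagacagaagg
mmu-miR-7217-3p: uGAGAACCcacaagcaagaaga

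Mir6990 (chr19:6913982-6914282), Mir6956 (chr15:79002231-79002531) and Mir5126 (chr1:84695841-84696141) had their peak in WT cells without leucine, with score ranks of 1403, 2557 and 3854 of 5980. Mir7217 (chr17:27355747-27356047) had its peak in KO cells without leucine, with rank 3090 of 4600. Of the 6 mature RNAs 5 lay whole inside the window, and for mmu-miR-7217-5p 16 of its 25 bases did. None of these 4 peaks overlapped a peak of another list. All coordinates are mm10, the same assembly as GRCm38.

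Exon peaks were the largest of the classes in every list. WT cells in complete medium had 101 exon, 41 3' UTR, 41 transcript-end and 11 non-coding peaks. The counts were 325, 129, 119 and 23 in WT cells without leucine, 167, 45, 46 and 13 in KO cells in complete medium, and 217, 66, 74 and 13 in KO cells without leucine. As a share of its list, the exon class made 4.32% (95% interval 3.54 to 5.23), 5.43% (4.87 to 6.04), 5.32% (4.56 to 6.16) and 4.72% (4.12 to 5.37) in that order, and the 4 intervals overlapped.

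Together the 4 classes made 8.30% (7.22 to 9.50) of peaks in WT cells in complete medium and 9.97% (9.22 to 10.8) in WT cells without leucine. In KO cells they made 8.63% (7.67 to 9.66) with leucine and 8.04% (7.27 to 8.87) without. The share was thus 1.66 percentage points higher without leucine in WT and differed by -0.584 points in KO, with overlapping intervals within each genotype. Among the higher-scoring 50% of peaks the WT shares were 5.82% (4.59 to 7.26) with leucine and 9.51% (8.56 to 10.5) without, and these intervals were apart. At equal list lengths the WT intervals overlapped, with 8.30% (7.22 to 9.50) and 9.03% (7.90 to 10.3). They also overlapped outside repeat elements, with 11.3% (9.80 to 12.8) and 13.3% (12.3 to 14.3). Between genotypes without leucine the intervals of WT and KO did not overlap, while in complete medium they did. Among peaks outside repeat elements the WT and KO shares without leucine were 13.3% (12.3 to 14.3) and 11.5% (10.4 to 12.6), and those intervals overlapped. They were apart in the higher-scoring 50%, with 9.51% (8.56 to 10.5) in WT and 6.10% (5.16 to 7.14) in KO. At equal list lengths they were also apart, with 9.03% (7.90 to 10.3) and 6.12% (5.18 to 7.17). Introns and intergenic sequence held most of the remaining peaks, 44.6% and 44.3% in WT cells in complete medium.

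**Figure D1:**
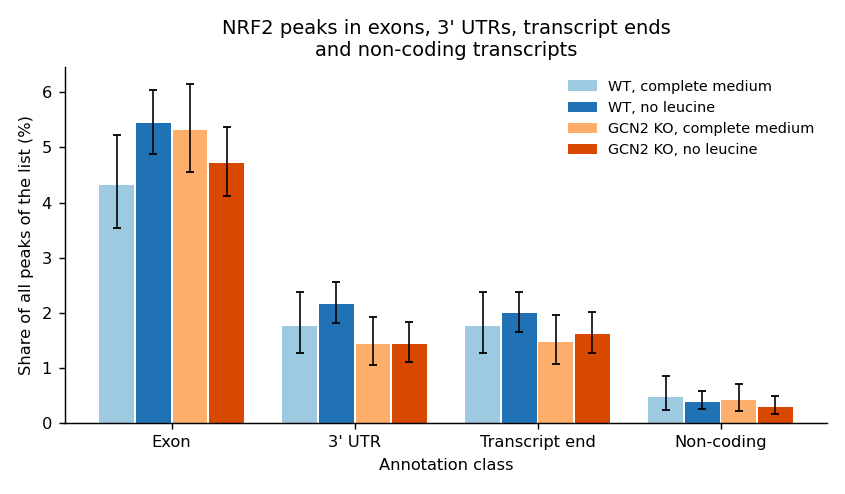
Share of each list's peaks (y axis, percent) in the 4 annotation classes (x axis). Bars give the value for 1 library each and error bars its exact 95% binomial interval. Exon peaks make 4.32% to 5.43% of the lists, and no other class passes 2.16%.

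Most exon peaks lay on internal exons. Promoter and 5' UTR peaks are classes of their own, and transcripts with an exon peak had a median of 13 exons. No baseline was computed for the share on internal exons. Over the 4 lists, 589 of 810 exon peaks (72.7%) were on an internal exon, 161 on the last, 45 on the first and 15 on the exon of a transcript with 1 exon. Of 281 3' UTR peaks, 270 were on the last exon of a spliced transcript. Within 1 kb of a TSS lay 6.70%, 8.05%, 4.8% and 8.11% of members, against 4.71%, 5.28%, 3.72% and 3.61% of all peaks. Within 10 kb the members' shares were 40.2%, 46.3%, 48.3% and 44.3%, against 25.8%, 28.2%, 25.7% and 23.4% of all peaks, so members were the nearer to a start in every list. Host genes of exon peaks had a median length of 36.4 kb and those of 3' UTR peaks 35.5 kb, against 17.4 kb for transcript-end peaks, 58.7 kb for intron peaks and 17.1 kb for all protein-coding genes of the gene table.

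Exon windows were richer in G and C than intron and intergenic windows. The median GC content of exon windows was 53.8%, 55.8%, 55.5% and 55.1% in the 4 lists, in the order WT in complete medium, WT without leucine, KO in complete medium and KO without leucine. Intron windows had medians of 51.2%, 52.2%, 52.2% and 51.8%, and intergenic windows 50.8%, 51.2%, 51.2% and 51.5%. The interquartile ranges overlapped, for example 50.8% to 57.8% for exon and 48.5% to 54.2% for intron windows in WT cells in complete medium. CpG content, the share of dinucleotide steps that are CG, had medians of 2.67%, 2.33%, 2.67% and 2.33% in exon windows and 1.33% in intron windows of all 4 lists. For 3' UTR windows the CpG medians were 1.67%, 1.67%, 1.33% and 1.67%, and for transcript ends 1.33%, 1.67%, 1.67% and 1.33%. The highest CpG content of any member, 15%, was in a window of Rn45s, the gene of the ribosomal RNA precursor.

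**Figure D2:**
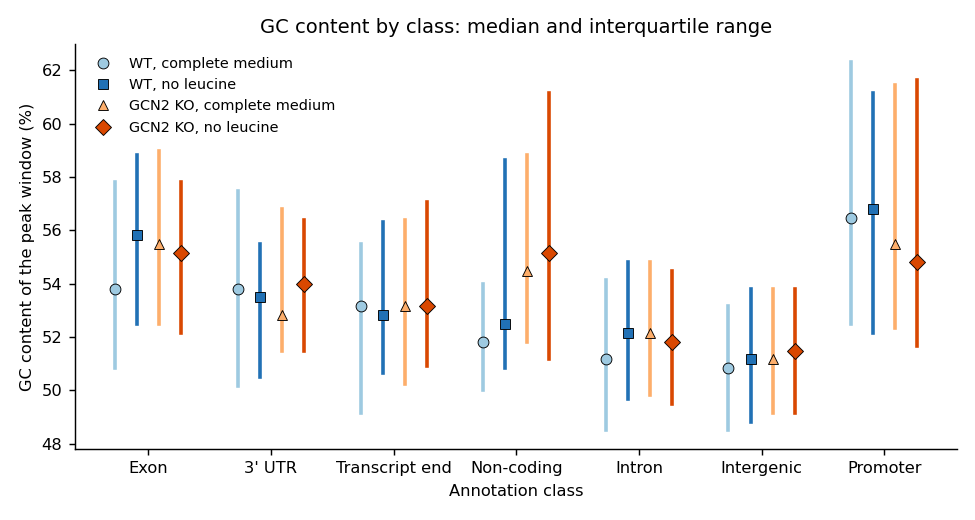
GC content of peak windows (y axis, percent) by annotation class (x axis). Symbols are medians over the peaks of 1 list and lines the interquartile range. The exon medians of 53.8% to 55.8% lie above the intron medians of 51.2% to 52.2%, and the ranges overlap.

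The score that the authors deposited with each peak was used only to rank peaks within a list. On a scale where 100 is the highest-scoring peak, the median place of members was 36.3, 49.6, 44.2 and 44.7, against 49.5, 49.6, 48.3 and 52.7 for all other peaks. Of members, 17 (8.76%), 131 (22.0%), 48 (17.7%) and 51 (13.8%) were in the top 25% of their list, counting ties. For the other peaks the shares were 26.8%, 25.3%, 25.7% and 25.5%. In WT cells without leucine the member interval, 18.7% to 25.5%, overlapped that of the other peaks, 24.1% to 26.5%. In the other 3 lists the member intervals reached up to 13.7%, 22.8% and 17.7% and lay below those of the other peaks.

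A member was counted as recurring when it overlapped a peak of any other list by at least 1 bp. In WT cells in complete medium 26 of 194 members (13.4%) recurred, against 27% of all peaks of that list. Without leucine 41 of 596 (6.88%) did, against 12.6% of all peaks. In KO cells 33 of 271 (12.2%) recurred in complete medium, against 18.4%, and 24 of 370 (6.49%) without leucine, against 14%. The members' shares were below those of all peaks in each of the 4 lists. The shares depend on how many peaks the lists hold: with each list shortened to its 2336 highest-scoring peaks, members recurred in 11.9%, 13.7%, 12.5% and 10.5%, against 25.2%, 27.1%, 21.4% and 23.0% of all peaks. The members' shares stayed below those of all peaks, and the order of the WT lists turned, with overlapping intervals (7.67 to 17.3 with leucine, 9.40 to 19.1 without). Members that recurred had higher scores, with a median place of 67.3, 90.4, 87.9 and 84.1, than members in 1 list alone, with 36.3, 49.6, 40.6 and 39.5.

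Exon peaks had the smallest recurrence of the 4 classes in every list. The share was 7 of 101 (6.93%, 2.83 to 13.8) in WT cells with leucine and 16 of 325 (4.92%, 2.84 to 7.87) in WT cells deprived of it. In KO cells it was 12 of 167 (7.19%, 3.77 to 12.2) and 6 of 217 (2.76%, 1.02 to 5.92). Intron peaks recurred in 26.7% (24.0 to 29.5), 12.4% (11.2 to 13.7), 17.5% (15.6 to 19.6) and 15.2% (13.6 to 16.9), so the exon intervals lay below them in 4 of 4 lists, as they did below the intergenic ones. This order of intervals held in 4 of 4 lists under all 9 settings of list length, filter and overlap that were computed, the main one included. The setting without Rn45s could not change it, because all Rn45s peaks are of the non-coding class. Removal of 1600014C10Rik and Rnf14 was not among the 9. For 3' UTR peaks the shares were 19.5%, 7.75%, 20% and 9.09%, and for transcript ends 19.5%, 9.24%, 19.6% and 12.2%, and the intervals of both classes overlapped those of introns in every list.

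The median place of exon peaks by score was 36.3, 49.6, 44.2 and 44.7, against 49.5, 49.6, 48.3 and 52.7 for intron peaks, so it was lower in 3 lists and the same in WT cells without leucine. Of all peaks in the top 25% of each list 71.7%, 40.3%, 51.5% and 43.4% recurred, against 11.8%, 3.32%, 7.39% and 4.46% of the rest, so the top 25% was also compared by itself. There 1 of 4, 8 of 61 (13.1%, 5.84 to 24.2), 6 of 21 (28.6%, 11.3 to 52.2) and 3 of 27 (11.1%, 2.35 to 29.2) exon peaks recurred. Intron peaks of the same score band recurred in 71.4%, 41.9% (38.0 to 45.8), 50.6% (45.1 to 56.1) and 45.2% (40.7 to 49.9). The intervals were apart in both lists without leucine and overlapped in both lists from complete medium. Outside the top 25%, where 97, 264, 146 and 190 of the exon peaks lay, exon peaks recurred in 6.19%, 3.03%, 4.11% and 1.58%. Intron peaks outside it recurred in 11.7%, 3.21%, 7.33% and 5.13%, and there the intervals of exon and intron peaks overlapped in all 4 lists. HOMER named no member as a repeat element, because an exon or transcript end takes precedence there. Intron peaks outside repeats recurred in 25.4%, 11.5%, 17.0% and 14.3%, close to all intron peaks.

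**Figure D3:**
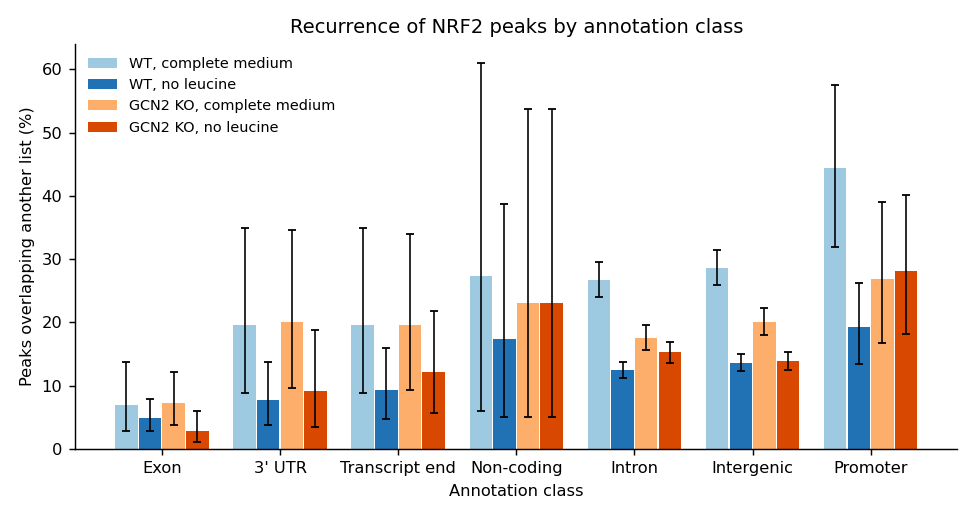
Share of peaks that overlap a peak of another list (y axis, percent) by annotation class (x axis). Bars are 1 library each and error bars exact 95% binomial intervals. Exon bars stand between 2.76% and 7.19%, below intron bars of 12.4% to 26.7%, and the non-coding class has few peaks and wide intervals.

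All peaks were merged into 14390 regions, and 1357 of them held a member. Of these, 1306 (96.2%) were in 1 list, against 93.5% of all regions. Another 32 (2.36%) were in 2 lists, 8 (0.590%) in 3 and 11 (0.811%) in all 4. For all regions these shares were higher, at 3.31%, 1.45% and 1.78%. Regions in all 4 lists numbered 256 in total. Members in these regions were 11 of 194 (5.67%), 9 of 596 (1.51%), 10 of 271 (3.69%) and 10 of 370 (2.70%), against 11%, 4.28%, 8.15% and 5.57% of all peaks. By class, the regions in all 4 lists held 5 transcript ends, 3 3' UTRs, 2 exons and 1 non-coding transcript. Among the 51 regions in more than 1 list, 45 had the same class in each list and 6 did not. In those 6 the window starts lay 53 to 263 bp apart between lists.

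The highest-scoring member of every list was a transcript-end peak of Bax, which encodes a death-promoting BCL2 family protein. It lay upstream of Ftl1, which encodes the light chain of ferritin, the iron store. The scores were 1271, 1984, 1159 and 974, and the ranks 2 of 2336, 1 of 5980, 1 of 3141 and 5 of 4600. In WT cells in complete medium the window was chr7:45460842-45461142, and its centre lay at -1106 bp relative to the Ftl1 TSS. The centres in the other lists lay at -1095, -1088 and -1092 bp, so the 4 windows almost coincided. Every promoter-class peak of the 4 lists lay within 1 kb of a TSS, and these windows were centred just outside that span. GC content was 58.1% to 59.5%.

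Neat1, the long non-coding RNA that forms paraspeckles, was the nearest start of a transcript-end peak of Frmd8, whose protein binds the iRhom regulators of shedding. The peak ranked 36, 87, 76 and 122 (chr19:5850167-5850467 in WT cells in complete medium) at -4839 to -4891 bp from the Neat1 TSS. A transcript-end peak of Nfx1, a transcription factor gene, ranked 63, 39, 21 and 56 (chr4:41026492-41026792), and the nearest TSS, that of the water and glycerol channel gene Aqp7, was 21491 to 21507 bp away. These sites kept high ranks in all 4 lists.

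Ncapd2, a condensin subunit gene, ends next to the start of Gapdh, which encodes a glycolytic enzyme. Its peak ranked 698 of 2336, 2017 of 3141 and 276 of 4600 in the lists where it was called a transcript end (chr6:125167368-125167668 in the WT list with leucine). The window of WT cells without leucine was shifted (chr6:125167315-125167615), was called a Gapdh promoter at -998 bp, and ranked 421 of 5980. Those called a transcript end were centred at -1051, -1027 and -1027 bp, just outside the 1 kb that held every promoter-class peak. The transcript-end peak of the microRNA gene Mir6360 ranked 985, 421, 326 and 1038 (chr18:23774330-23774630). In WT cells both sites had a lower place with leucine than without it.

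Of the 3 3' UTR regions in all lists, that of Gpr132, a G protein-coupled receptor gene, ranked 66, 463, 112 and 486 (chr12:112851113-112851413). The single exon of Itpripl2 held a 3' UTR peak with ranks 93, 199, 311 and 434 (chr7:118486908-118487208). Fbf1 encodes a centriole distal appendage protein, and the peak on its last exon, exon 31, lay upstream of Mrpl38, a mitochondrial ribosomal protein gene. That peak ranked 1592 of 2336 in the WT list with leucine and 240, 50 and 170 in the other lists, with scores of 29, 122, 225 and 123. The Fbf1 site was thus in the lower part of 1 list and near the top of the other 3.

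Notch1, which encodes a cell-surface receptor, carried a peak at its last exon, exon 34, in WT cells in complete medium (chr2:26460805-26461105, rank 874). Shifted windows of the other lists, at chr2:26460837-26461137 in WT cells without leucine, fell in the intron class, with ranks of 325, 1509 and 422. The non-coding region in all lists was in Rn45s, with ranks of 100, 66, 245 and 174 and GC content of 66.4% to 69.8%. Ribosomal RNA genes are repeated many times, so reads from all copies may be placed on this 1 annotated copy.

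**Figure D4:**
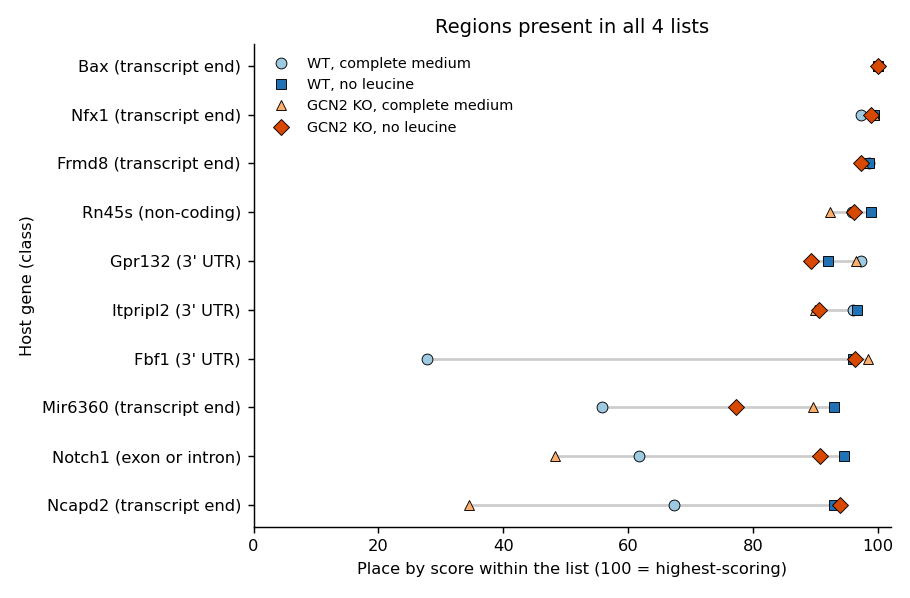
Place by score within the list (x axis, 100 is the highest-scoring peak) of 10 of the 11 regions found in all 4 lists (y axis, by host gene). Each symbol is the peak of 1 list. The Bax, Nfx1 and Frmd8 regions lie above 97 in every list, and the Fbf1, Ncapd2 and Notch1 regions spread down to 27.8, 34.6 and 48.3.

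Rnf14, a RING-type ubiquitin ligase gene, showed 5 of 6 peaks on exons. These were in WT cells without leucine (ranks 949, 340 and 654) and KO cells in complete medium (ranks 241 and 681), and the remaining peak was in an intron (rank 5397). The exon windows at chr18:38301540-38301840 and chr18:38308130-38308430 of WT cells without leucine were each matched in KO cells in complete medium. WT cells in complete medium and KO cells without leucine had no Rnf14 peak.

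1600014C10Rik, the mouse counterpart of human C19orf12, a gene linked with brain iron accumulation, held 14 peaks, 3 in WT cells in complete medium and 11 in WT cells without leucine, and none in either KO list. Of the 14, 8 were in introns, 1 on exon 3, 3 in the 3' UTR, 1 at the transcript end and 1 at the promoter, between -329 and 13940 bp from the start of the transcript to which most of them were assigned. The 3' UTR peak of the WT list from complete medium (chr7:38194988-38195288, rank 1349) overlapped one of the list without leucine (rank 520), as did an intron peak (ranks 470 and 585). In these windows scores ran from 18 to 132.

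**Figure D5:**
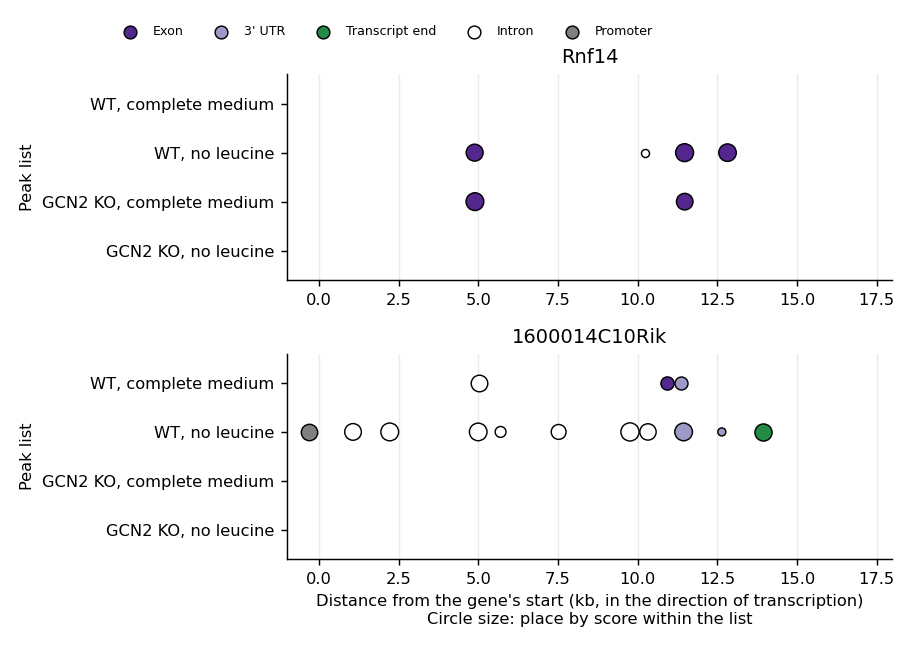
Peaks of Rnf14 and 1600014C10Rik by distance from the start of the gene's most often assigned transcript (x axis, kb) in each list (y axis). Circles are peaks, coloured by annotation class and sized by place within the list by score. Rnf14 has 5 of 6 peaks on exons, in WT cells without leucine and KO cells in complete medium, and the 14 peaks of 1600014C10Rik are all in WT lists.

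Rn45s had 9 peaks in 4 regions, with ranks from 46 to 245. A region at 2615 to 2776 bp from its start was in both complete-medium lists (ranks 46 and 116), and a region at 367 to 396 bp was in both lists without leucine (ranks 116 and 149). Ttn, which encodes the muscle protein titin and has 313 exons in the annotated transcript, had 4 exon peaks. None of them was in more than 1 list, as for 96.2% of all regions with a member. Dnah17, an axonemal dynein gene, Sh2d2a, a T cell adaptor gene, and Slc25a12, a mitochondrial aspartate and glutamate carrier gene, had 3 member regions each. Of 1274 host genes, 1204 had 1 member region and 62 had 2.

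Ranks below follow the order of the lists used above. Among regions in 3 lists, 4 were in every list but KO without leucine, and 4 in every list but WT in complete medium. The first group included exon 2 of 2 of Socs3, an inhibitor of cytokine signalling, with ranks of 874, 79 and 83 (chr11:117967861-117968161 in WT cells without leucine). It also held the end of the small nucleolar RNA gene Snora2b (ranks 170, 949 and 310) and the 3' UTR of the ubiquitin ligase gene Znrf1 (ranks 288, 903 and 681). The second group held the transcript end of Mgat4d, upstream of the chaperone gene Clgn (ranks 1493, 150 and 178), the 3' UTR of the protease inhibitor gene Cst6 (ranks 379, 380 and 3090), that of the focal adhesion gene Tns3, and a non-coding exon of Pisd-ps3. No member region was in the other combinations of 3 lists, which held 72 and 27 regions in all. Of all 209 regions in exactly 3 lists, 8 (3.83%) held a member, so few were to be found in any combination.

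Leucine withdrawal in WT cells was compared by overlap of the peaks. Of the members in complete medium, 22 of 194 (11.3%, 7.24 to 16.7) overlapped a peak without leucine, against 22.9% of all peaks. Of the members without leucine, 20 of 596 (3.36%, 2.06 to 5.14) overlapped a peak in complete medium, against 8.96%. Host genes with a member peak numbered 188 and 569, and 25 were in both sets, 13.3% of the first and 4.39% of the second. For peaks of any class these shares were 49.4% of 1162 and 21.2% of 2705 host genes. Those sets are larger, and the share in common tends to rise with set size. Here and in the comparisons below the shares for members and for any class are therefore not on an equal footing. In 19 of the 25 the peaks overlapped. Regions confined to the pair of WT lists numbered 149, of which 7 held a member. They included the last exon of the non-coding RNA A330023F24Rik, upstream of Mir29b-2 (ranks 609 and 325), the transcript end of Higd1a, a hypoxia-inducible mitochondrial gene (ranks 961 and 553), and the 3' UTR of Dgat2, a triglyceride synthesis gene (ranks 1785 and 1524).

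Leucine withdrawal in GCN2 KO cells gave 17 of 271 members (6.27%, 3.70 to 9.85) of the complete-medium list with an overlap, against 13.7% of all peaks. In the other direction 16 of 370 (4.32%, 2.49 to 6.93) overlapped, against 9.33%. Host genes numbered 262 and 366, with 25 in both (9.54% and 6.83%, against 36.4% and 28.5% for peaks of any class), and in 16 of those the peaks overlapped. Of 97 regions confined to the pair of KO lists, 4 (4.12%) held a member. These were exon 4 of the ephrin receptor gene Epha4 (ranks 945 and 3090), the 3' UTR of Def8 (ranks 2096 and 1222), the transcript end of Snx7, a sorting nexin gene (ranks 2781 and 3090), and Cbfa2t3, a corepressor gene, with an exon peak and an intron peak that overlapped (ranks 1180 and 4468).

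GCN2 KO and WT cells were then compared in complete medium. Of the WT members, 18 of 194 (9.28%, 5.59 to 14.3) overlapped a KO peak, against 15.6% of all peaks, and of the KO members 17 of 271 (6.27%) overlapped a WT peak, against 11.6%. They had 16 host genes in common, 8.51% of the WT and 6.11% of the KO host genes, against 31.9% and 25.3% for peaks of any class. In 15 of the 16 the peaks overlapped. Regions in these lists alone numbered 23, and 3 held a member. These were the Rn45s region named above, the 3' UTR of the histone acetyltransferase gene Kat7 (ranks 428 and 446), and exons 13 and 14 of the laminin gene Lama5 (ranks 698 and 2540).

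Without leucine, 21 of 596 WT members (3.52%) overlapped a KO peak, against 7.96% of all peaks, and 20 of 370 KO members (5.41%) overlapped a WT peak, against 10.4%. Host genes in both numbered 32 of 569 and 366 (5.62% and 8.74%, against 28.7% and 41.5% for peaks of any class), and in 18 of those the peaks overlapped. In this comparison 14 of the shared host genes carried separate peaks. Of 97 regions in these lists alone, 8 (8.25%) held a member. Exon 2 of Enc1, which encodes an actin-binding kelch protein, ranked 501 and 343 (chr13:97245167-97245467 in WT). The transcript end of Ring1, a Polycomb gene, ranked 2557 and 315, and exon 24 of the integrin gene Itgb4 ranked 2557 and 3051.

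WT cells without leucine and KO cells in complete medium differ in both genotype and medium, and 66 regions were in these lists alone. A member was in 9 of them (13.6%), against 6.72% of all regions in exactly 2 lists and 3 of 23 in the pair of complete-medium lists. Over all regions, most of them in 1 list, the share was 9.43%. The counts are small and the difference was not tested. The 9 regions included exon peaks of Asb1, Bcl6, Cul9 and Sez6 (in an intron in the KO list), the pair of Rnf14 exon regions, the transcript end of Speg, and the 3' UTR of Mrtfb. Bcl6 encodes a transcriptional repressor, and its exon 5 peak ranked 1312 of 5980 and 2017 of 3141. The opposite pair of lists, WT with leucine and KO without it, had 44 regions and 1 with a member, exon 8 of Itln1 (ranks 1365 and 907).

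Members in 1 list alone reached high ranks in a few genes. In KO cells without leucine the 3' UTR of Tomm20, a mitochondrial import receptor gene, ranked 168 of 4600 (chr8:126932326-126932626) and that of Csrnp3 ranked 191. In KO cells in complete medium the end of Mir3082 ranked 114 of 3141, and exon 1 of Stub1, a ubiquitin ligase gene, ranked 150 (chr17:25832701-25833001, GC content 71.4%). Exon 10 of Wwp1 ranked 432 of 5980 in WT cells without leucine, at a GC content of 33.6%. Exon 15 of the splicing factor gene Prpf6 ranked 399 of 2336 in the WT list with leucine. Other such sites were exon 6 of Kmo, the kynurenine monooxygenase gene (rank 379 of 4600), and exon 6 of Ctbp1, a corepressor gene (rank 246 of 3141).

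The gene that hosted a peak was often not the gene of the nearest TSS. They were the same for 52.8% (45.6 to 60.1), 57.5% (53.4 to 61.5), 55.4% (49.2 to 61.4) and 64.6% (59.5 to 69.5) of members in the 4 lists, and for 833 of 1429 (58.3%) over all. By class the share was 62.9% for exons, 44.8% for 3' UTRs, 53.9% for transcript ends and 80.0% for non-coding transcripts. For the 129 transcript-end peaks with another nearest gene, 69 lay upstream of that gene's TSS, 39 of them within 10 kb and 10 within 2 kb. These counts are of peaks pooled over the 4 lists, so a site found in several lists is counted for each of them. The Ftl1 site entered the count within 2 kb from all 4 lists, and the Gapdh site from every list but WT without leucine. The 10 peaks thus came from fewer sites.

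Of 55 NRF2 target genes, 4 (7.27%) hosted a member or were its nearest TSS in any list, beside 7.26% of 21900 protein-coding genes in all. For a peak of any class it was 43 (78.2%), against 35.1% of all protein-coding genes. Ftl1 was the only one of the 4 with such a peak in all 4 lists. In KO cells in complete medium, the 3' UTR of Bach1, a repressor that competes with NRF2, had a peak of rank 1114 (chr16:87729936-87730236). In the same list a 3' UTR peak of Dcp1a had Tkt, a pentose phosphate enzyme gene, as its nearest TSS at -23666 bp. Cat, which encodes catalase, had a 3' UTR peak of rank 591 in KO cells without leucine (chr2:103454523-103454823), 30480 bp from its TSS.

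Heme and iron genes were reached in 6 of 40 cases (15%), against 22 (55%) with a peak of any class. Over all protein-coding genes these shares were 7.26% and 35.1%, which also stand beside the lists that follow. With so few genes per list, no difference from these shares was tested. Beside Ftl1 and Bach1 these included Slc11a2, an iron importer gene, with a peak on exon 10 in WT cells in complete medium (rank 1592). The heme synthesis gene Urod was nearest to an exon peak of Zswim5 in WT cells without leucine (rank 1201, 7743 bp). Ppox, another gene of heme synthesis, was nearest to the transcript end of B4galt3 in KO cells without leucine (rank 3090, 3967 bp).

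ATF4 and amino acid response genes, a list that also includes the GCN2 gene Eif2ak4, were reached in 4 of 41 cases (9.76%), against 18 with a peak of any class. Pck2, the mitochondrial carboxykinase gene (exon 10, rank 4126), and Sesn2, a leucine-binding mTORC1 regulator gene (transcript end, rank 5936 of 5980), had theirs in WT cells without leucine. Nars, an asparaginyl-tRNA synthetase gene, was nearest to an exon peak of Atp8b1 in KO cells in complete medium (rank 1509). Vegfa had a peak on exon 1 in KO cells without leucine (rank 3090). None of these peaks overlapped a peak of another list, which was the usual case, as only 6.49% to 13.4% of members did by list.

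The remaining lists were reached by members in 0 to 15.6% of their genes. Of 23 AP-1, CNC and small Maf genes 1 was reached, Bach1, against 12 for peaks of any class. Fibroblast matrix and cytoskeleton genes gave 5 of 41, among them Thbs2, Thy1 and Pdgfra, against 18. Macrophage genes gave 1 of 20, Csf1r, and neuron and hepatocyte genes 0 of 20, against 9 and 10. Housekeeping and translation genes gave 5 of 32, which were Neat1, Rn45s, Gapdh, Ldha and Hspa8, against 14.

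Promoter windows of RefSeq (GRCm38.p6), from 250 bases before to 50 after a start, were reached by 17 members, none of which recurred in another list. Among all members recurrence was also rare, at 6.49% to 13.4% by list. The exon 1 peak of Stub1, with rank 150 and 132 shared bases, had the best rank of the 17. Of the windows in the table, 12.4% of 32851 held TGACNNNGC, the core of the antioxidant response element, and 7.81% held TGANTCA, the AP-1 element, on either strand. The motifs can overlap each other. None of the 17 shared stretches, the shortest of which was 1 base, held either motif. No match says only that these letters were not in the shared stretch.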

How the data were processed

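NRF2 ChIP-seq peak lists of 4 libraries, 1 per condition, were used, and 2 input libraries enter only as the control the authors set peaks against. Reads of 50 bp were processed with BWA 0.7.12, MACS2 2.1.0 and HOMER 4.7 on mm10, per the submitters' processing notes; their settings are not stated there. Per the file headers, each library's peaks were called on their own, with the input of its genotype from complete medium as control, also for cells without leucine. The deposited score is a whole number of at least 13 in every list, and the sources used here do not name the caller's column. GC and CpG content were deposited by the authors as a fraction of the 301-base window, printed here as percent.

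Members were taken by annotation class. The host gene is that of the transcript named in the annotation: 1404 of 1431 were found in the gene table (GRCm38.p6), 25 by names in the lists, and 2 had no name. Peaks overlapping by at least 1 bp were merged into regions. Python 3.11.15, pandas 2.3.3 and scipy 1.17.1 were used, and scripts were tested on simulated data. Text names regions in all 4 lists, the 3 highest-scoring members per class and list, members of 8 gene lists, genes with 3 or more member regions, and the best-placed regions of each combination of lists. Asb1, Cul9, Sez6, Mrtfb, Itgb4, Stub1, Wwp1, Ctbp1, Mir3082 and the microRNA genes shown by sequence were named after their values were seen. The members and lists were chosen with earlier results of these data known. Comparisons were leucine withdrawal within each genotype and genotype within each medium. Alternatives are given in the closing section. Some genes that the naming rule selects are not reported here, though the counts include them.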

Additional observations from a re-analysis of the deposited data

Results flagged for a closer look

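The share of peaks in the 4 member classes moved in opposite directions with leucine withdrawal in the 2 genotypes. It differed by 1.66 percentage points (without minus with leucine) in WT cells and by -0.584 percentage points in GCN2 KO cells. Each value rests on 1 library per condition, the intervals of both lists overlapped within each genotype, and the difference between the genotypes was not tested. The higher-scoring 50% of each list gave the same directions, with 5.82% and 9.51% in WT and 7.65% and 6.10% in KO.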

How the results depend on the processing

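The share of peaks in the member classes, in the order WT in complete medium, WT without leucine, KO in complete medium and KO without leucine, was 11.3%, 13.3%, 11.8% and 11.5% of peaks outside repeat elements, where the members stay the same and the total shrinks. In the higher-scoring 50% of each list, ties kept, it was 5.82%, 7.65% and 6.10% in all lists but WT without leucine, where it moved by less than its interval. At equal lengths of 2336 peaks it was 9.03% in WT and 6.12% in KO without leucine. Recurrence of members in the higher-scoring 50% was 26.0% in WT with leucine and 11.2% in leucine-starved KO cells, 13.7% and 10.5% in WT and KO without leucine at equal lengths, and 9.56% and 10% in these lists with peaks widened by 500 bp. For each other change the cause was not tested. The remaining 49 recomputed values stayed within the interval of the value reported. Alternatives without Rn45s, and without 1600014C10Rik and Rnf14, were chosen after the data were seen. No paired analysis was possible because each condition has 1 library, the labels give no replicate numbers and no result comes from a test. Unknown depth limits every count of recurring peaks.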
